A study of Homo sapiens with 8 samples.

Results

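Under the same control siRNA and the same hypoxia, separate cultures of Huh-1 cells differed by over 2-fold in 552 genes, and these genes are described here. Huh-1 is an established human hepatocellular carcinoma line that still makes many plasma proteins of the liver. Each culture was reverse-transfected with a non-targeting siRNA (siControl) and moved 48 h later to 1% O2 for 24 h. siControl culture 2 (biological replicate 2, arrays 3 and 4) was set against siControl culture 1 (biological replicate 1, arrays 1 and 2). The arrays of a culture are technical replicates, so each side is 1 culture and no difference was given a p-value. The 4 siLSD1 arrays of the series, also 2 cultures of 2 arrays, received an siRNA against LSD1, the histone demethylase encoded by KDM1A, under otherwise equal handling, and serve only to place the members. Every culture was hypoxic, and the labels name neither slide nor date, nor the passage or density of a culture.

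A gene was taken as a member where the normalized signal was over 2-fold apart on all 4 pairings of a culture 2 array with a culture 1 array. The 34694 rows of the deposited table were first reduced to 15402 whose signal stood above every ERCC control row on both arrays of at least 1 control culture. Of these, 333 were higher in culture 2, which is 2.16% of the rows entered, and 219 were lower, which is 1.42%. In all, 481 members carried 1 current gene symbol (281 higher and 200 lower), and the other 71 kept the name of the table. Signals are linear bead intensities after background correction and quantile normalization over all 8 arrays, and folds are on a scale with an added offset of 50, which understates the change of dim genes. In 48 members (28 higher, 20 lower) no array of the dimmer culture stood above the ERCC rows. These genes entered only through the culture in which they were bright, and they are given as "at least N-fold", measured to the dimmest signal above background. The bound itself exceeded 2-fold in 23 of them (8 higher, 15 lower).

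Some of the genes that stood apart belong to a few known systems. Metallothioneins are small cysteine-rich proteins that bind zinc and copper, and their genes are switched on by the zinc-sensing factor MTF1 and by glucocorticoids. Bone morphogenetic proteins act through SMAD factors on the ID genes, on the feedback inhibitor SMAD6 and, in hepatocytes, on HAMP, which encodes the iron hormone hepcidin. Hepatocytes also carry a programme of secreted plasma proteins, apolipoproteins and detoxifying enzymes, which nuclear receptors and CEBPA help to drive, while YAP and TEAD factors act on genes that respond to cell shape and density.

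The labels and the arrays were checked first. KDM1A had normalized signals of 4824 and 4213 on the culture 2 arrays, against 3606 and 3490 on the culture 1 arrays, a log2 difference of 0.35, and the siLSD1 arrays lay between 1388 and 1511. Both control cultures thus stood above all siLSD1 arrays. Of 12 liver markers, 11 were above background on all 4 control arrays, and the exception was HNF4A, which was above background only in culture 2. Their summed signal was 230411 to 237631 in culture 2 and 192469 to 193154 in culture 1. Leukocyte markers PTPRC and CD3E, the fibroblast collagens COL1A1, COL1A2 and COL3A1 and the endothelial genes VWF and CDH5 were not above background on any control array. The summed signal of 7 leukocyte markers was 3134 to 3295 in culture 2 and 2474 to 2562 in culture 1, and only CD68 and LYZ were above background on all 4 arrays. For 5 fibroblast markers the sums were 1643 to 1704 in culture 2 and 1569 to 1681 in culture 1, with LUM alone above background on all 4. The 3 endothelial markers summed to 259 to 275 in culture 2 and 222 to 242 in culture 1. Decorin (DCN), a fibroblast matrix proteoglycan, was the only member among the markers of other cell types, with 96.7 and 103 in culture 2, against 289 and 296 in culture 1, at least 2.13-fold lower. The part of other cells in the differences was not tested. In bulk RNA, fewer cells of a kind and less RNA per cell cannot be told apart.

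Arrays of 1 culture differed little from each other. Over the genes entered, the log2 differences of technical arrays spread with an SD of 0.15 in siControl culture 2, where 0 genes were over 2-fold apart, and of 0.16 in siControl culture 1, where 2 were. Between the control cultures the SD was 0.49, although the signals of the cultures still correlated at r = 0.971 over 15402 genes of arrays normalized together. The same measure between siLSD1 culture 2 and siLSD1 culture 1 was 0.18, with 0 genes over 2-fold apart on all 4 pairs. The median difference of all genes entered was 0.006, and 50.7% leaned higher in culture 2. Member folds had a median of 2.54 in each direction and reached 10.6 for HAMP among the higher genes and 16.1 for MT1G among the lower ones. More than 4-fold on all 4 pairs were 15 higher and 26 lower members. At the edge of the rule, the smallest pair difference in log2 was 1.001 for LOC100129362, 1.002 for UBALD1 and 1.002 for SGMS2, just inside, and 0.999 for SERPINA10 and 0.998 for ITIH2, just outside.

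**Figure D1:**
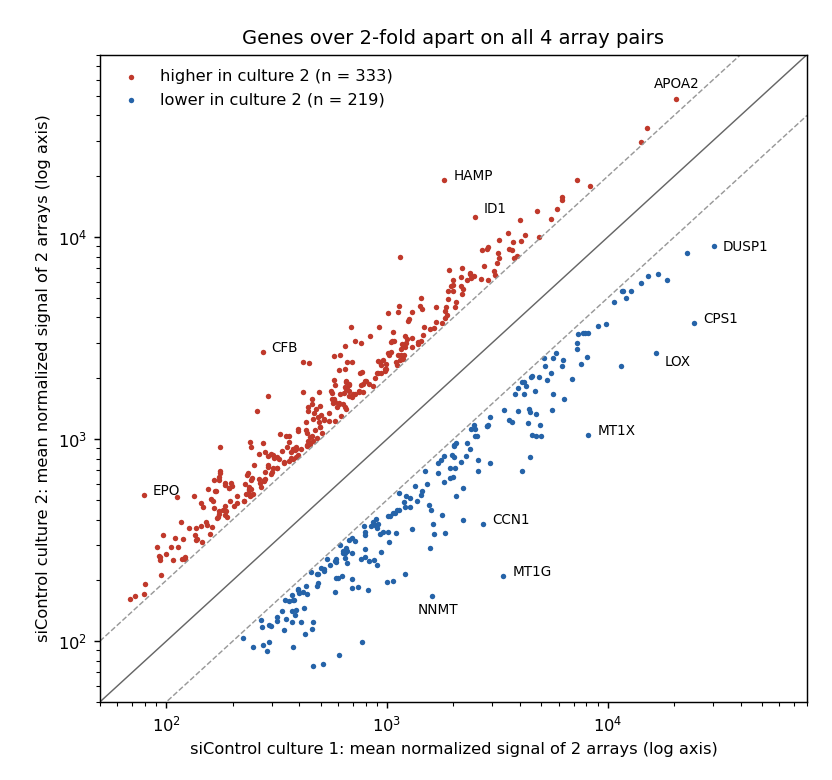
Mean normalized signal of each of the 552 members in siControl culture 2 (vertical, log axis) and siControl culture 1 (horizontal, log axis), with dots in red where higher and in blue where lower in culture 2. The solid line marks equal signals and the dashed lines 2-fold; HAMP and CFB lie farthest above it, and MT1G, MT1X, NNMT and CPS1 are among those farthest below.

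Metallothioneins and zinc transporters held the largest share of members of any list described here. Of 12 genes entered from a list on metallothioneins and zinc, 9 were over 2-fold lower in culture 2 and 0 higher, and the list's median log2 difference was -2.06, beside 0.006 for all genes. The 9 are MT1A, MT1E, MT1F, MT1G, MT1H, MT1M, MT1X and MT2A, which are the 8 genes entered along their cluster on chromosome 16, and SLC30A1, the exporter that carries zinc out of the cell. The promoters of MT2A, MT1X, MT1H and SLC30A1 are shown because these genes were lower together. Metallothionein promoters are known for metal response elements, the sites bound by MTF1. Those of MT1A, MT1E, MT1F, MT1G and MT1M, which were lower too, had no entry in the promoter set used. The 250 bases before the transcription start are given 5′ to 3′ in the direction of the gene, from RefSeq on GRCh38.p14, in which 367 of the 481 named members had a promoter entry. Capitals mark each match to the core of the metal response element, TGCACNC or TGCGCNC on either strand.
MT2A promoter, chr16:56608334-56608583, plus strand: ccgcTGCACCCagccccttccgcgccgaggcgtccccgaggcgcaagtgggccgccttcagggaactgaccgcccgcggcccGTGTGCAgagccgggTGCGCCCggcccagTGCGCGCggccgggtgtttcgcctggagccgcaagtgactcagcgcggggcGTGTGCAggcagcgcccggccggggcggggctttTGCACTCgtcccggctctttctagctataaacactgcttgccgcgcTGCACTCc
MT1X promoter, chr16:56682220-56682469, plus strand: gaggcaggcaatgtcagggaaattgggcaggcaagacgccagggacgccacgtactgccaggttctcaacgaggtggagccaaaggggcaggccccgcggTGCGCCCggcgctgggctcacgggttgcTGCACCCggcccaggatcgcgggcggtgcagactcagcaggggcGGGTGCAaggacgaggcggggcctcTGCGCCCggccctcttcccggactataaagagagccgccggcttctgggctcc
MT1H promoter, chr16:56669564-56669813, plus strand: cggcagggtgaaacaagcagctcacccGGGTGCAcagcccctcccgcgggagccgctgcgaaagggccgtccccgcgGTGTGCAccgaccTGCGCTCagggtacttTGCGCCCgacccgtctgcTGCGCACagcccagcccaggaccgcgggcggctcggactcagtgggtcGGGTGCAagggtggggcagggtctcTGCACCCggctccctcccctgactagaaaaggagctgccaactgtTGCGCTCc
SLC30A1 promoter, chr1:211579162-211579411, minus strand: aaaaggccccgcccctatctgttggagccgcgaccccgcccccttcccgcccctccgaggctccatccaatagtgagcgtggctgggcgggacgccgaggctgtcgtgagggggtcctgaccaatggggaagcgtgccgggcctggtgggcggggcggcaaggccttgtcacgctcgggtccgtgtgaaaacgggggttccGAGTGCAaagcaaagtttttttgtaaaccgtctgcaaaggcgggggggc
The window of MT1H held 8 matches, that of MT2A 7, that of MT1X 4 and that of SLC30A1 1. Of 35116 promoters of the same length, 24.8% held at least 1 match and 1.58% held 3 or more. A match is a run of letters and not a measured binding site.

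MT1G had 192 and 228 on the culture 2 arrays, against 3402 and 3335 on the culture 1 arrays, a log2 difference of -4.01 (pairs -4.15 to -3.87). This gene was the most changed of all members, and the siLSD1 arrays, at 198 to 232, lay at the level of culture 2. MT1X had 1057 and 1047 in culture 2, against 8390 and 7928 in culture 1 (-2.95, pairs -3.0 to -2.91). MT1A had 2309 and 2302 in culture 2, against 11495 and 11380 in culture 1 (-2.31, pairs -2.32 to -2.30). MT2A, the main isoform of most human tissues, had 557 and 593 in culture 2, against 2237 and 2181 in culture 1 (-1.94, pairs -2.01 to -1.88). The arrays of 1 culture lay close together for each of these genes. MT1E had 1046 and 1056 in culture 2, against 5252 and 3912 in culture 1, and MT1F 204 and 191 in culture 2, against 1228 and 918 in culture 1. The culture 1 arrays of both were more scattered. MT1M and MT1H were not above background in culture 2. MT1M had 79.9 and 74.3 in culture 2, against 481 and 546 in culture 1, at least 3.74-fold lower, and MT1H had 96.9 and 90.8 in culture 2, against 360 and 396 in culture 1, at least 2.75-fold lower. Near-identical copies can share probes, so the split of signal among metallothionein genes is uncertain.

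Zinc transport moved with them in part. SLC30A1 had 606 and 624 in culture 2, against 1873 and 1750 in culture 1 (-1.56, pairs -1.63 to -1.49). SLC39A5, a zinc importer outside the list, differed the other way, with 1582 and 1671 in culture 2, against 270 and 310 in culture 1 (2.49, pairs 2.35 to 2.63). The remaining genes of the list were not members: MTF1 itself had 1814 and 1957 in culture 2, against 2206 and 1908 in culture 1, a log2 difference of -0.12. The transporter SLC30A10 differed by -0.11 and the importer SLC39A10 by 0.77.

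Of 11 genes induced by the glucocorticoid receptor, 6 were over 2-fold lower in culture 2 and 0 higher, with a median of -1.52. SGK1, a kinase that controls ion channels, had 191 and 169 in culture 2, against 830 and 816 in culture 1 (-2.20, pairs -2.30 to -2.10). FKBP5, a co-chaperone that dampens the receptor, had 1409 and 1254 in culture 2, against 4810 and 4682 in culture 1 (-1.84, pairs -1.94 to -1.73). DUSP1, a phosphatase that shuts off MAP kinases, had 9337 and 8810 in culture 2, against 29759 and 30895 in culture 1 (-1.74, pairs -1.81 to -1.67). KLF9, a transcription factor, had 461 and 484 in culture 2, against 1476 and 1642 in culture 1 (-1.72, pairs -1.83 to -1.61). ZBTB16 and the clock gene PER1 were not above background in culture 2 and were at least 2.08-fold and at least 1.99-fold lower. The other 5 genes were mixed: TSC22D3 differed by -0.95, the receptor NR3C1 by -0.41, CRISPLD2 by -0.39, ERRFI1 by -0.05 and tyrosine aminotransferase (TAT) by 1.04, with 1 or more pairs within 2-fold for each. SCNN1A, a subunit of the epithelial sodium channel, which SGK1 is known to regulate, was lower too, with 188 and 206 in culture 2, against 996 and 1008 in culture 1 (-2.35).

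Of 15 targets of BMP and TGF-beta signalling entered, 7 were over 2-fold higher in culture 2 and 0 lower, 4 leaned lower, and the median was 0.62. HAMP, the gene of hepcidin, had 18347 and 20173 in culture 2, against 1810 and 1828 in culture 1, a log2 difference of 3.40 (pairs 3.33 to 3.48) and the largest among the higher members. Its promoter is shown because it is the classical BMP target of the hepatocyte. Capitals mark GGCGCC, the core of a BMP response element and its own reverse complement.
HAMP promoter, chr19:35282278-35282527, plus strand: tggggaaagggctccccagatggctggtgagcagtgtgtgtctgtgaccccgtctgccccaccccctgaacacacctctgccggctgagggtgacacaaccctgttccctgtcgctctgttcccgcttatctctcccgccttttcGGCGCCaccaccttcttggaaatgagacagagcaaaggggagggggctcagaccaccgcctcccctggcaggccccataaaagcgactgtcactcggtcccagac
The window of HAMP held 1 match, 105 bases before the start, while those of ID1, ID3 and SMAD6 held 0; 16.4% of the 35116 promoters held at least 1. The windows were searched for each motif separately, and no match says only that these letters are not in the 250 bases.

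The ID genes encode inhibitors of helix-loop-helix factors and are direct BMP targets. ID1 had 12942 and 12203 in culture 2, against 2412 and 2578 in culture 1 (2.33, pairs 2.24 to 2.42), and ID3 had 8549 and 8817 in culture 2, against 2849 and 2800 in culture 1 (1.62, pairs 1.59 to 1.65). ID4 and ID2 differed by 0.62 and 0.25 and were not members. Feedback inhibitors split in the same manner: SMAD6 had 4251 and 4227 in culture 2, against 1153 and 1080 in culture 1 (1.93, pairs 1.87 to 1.98), whereas SMAD7 had 639 and 576 in culture 2, against 460 and 447 in culture 1 (0.42). Among secreted factors, follistatin (FST), which binds activin, had 2743 and 2466 in culture 2, against 617 and 613 in culture 1 (2.08, pairs 2.00 to 2.16). INHBE, a subunit of activin E made in the liver, had 9204 and 8083 in culture 2, against 2602 and 2791 in culture 1 (1.68, pairs 1.53 to 1.82). The decoy receptor BAMBI leaned lower, at -0.50.

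Besides HAMP, the iron list of 13 genes held 2 more members, both higher, and 0 lower, with a median of 0.07. HJV, the hemojuvelin coreceptor through which BMP drives HAMP, had 225 and 202 in culture 2, against 93.5 and 95.5 in culture 1, where it was not above background, at least 1.30-fold higher. SLC11A2, an importer of ferrous iron, had 6524 and 7030 in culture 2, against 2973 and 3147 in culture 1 (1.15, pairs 1.05 to 1.24). The BMP6 ligand leaned lower at -0.54, and ferritin heavy chain (FTH1) and the transferrin receptor (TFRC) differed by 0.33 and -0.27.

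**Figure D2:**
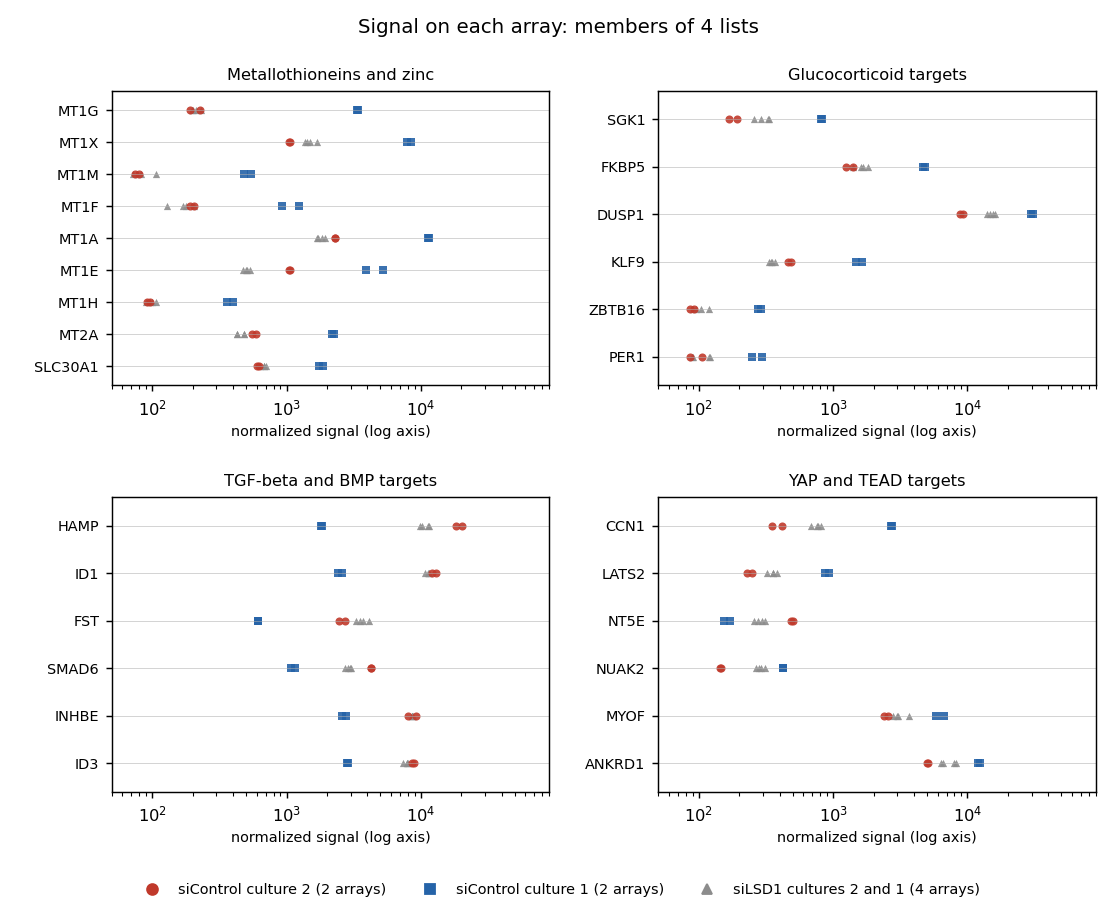
Normalized signal (log axis) of each array for the members named from 4 lists, with siControl culture 2 as red circles, siControl culture 1 as blue squares and the 4 siLSD1 arrays as grey triangles. Red and blue points do not overlap for any gene, as the rule demands, and the grey points lie near the red ones for most metallothioneins, between the cultures for NUAK2 and NT5E, and beyond red for FST.

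Targets of YAP and TEAD leaned lower, with 5 lower and 1 higher member among 19 entered and a median of -0.45. CCN1, a matrix protein listed under its older name CYR61, had 348 and 418 in culture 2, against 2758 and 2699 in culture 1 (-2.84, pairs -2.99 to -2.69). The feedback kinase LATS2, which restrains YAP, had 230 and 247 in culture 2, against 866 and 932 in culture 1 (-1.92, pairs -2.02 to -1.81). NUAK2, another kinase, had 147 and 145 in culture 2, against 423 and 421 in culture 1 (-1.53). The repair protein MYOF differed by -1.34 and the muscle ankyrin repeat protein ANKRD1 by -1.28. CCN2, also known as CTGF, lay at the edge, with 3345 and 3019 in culture 2, against 6570 and 6153 in culture 1, a log2 difference of -1.0, and was not a member. NT5E, the ectonucleotidase CD73, went the other way, with 500 and 484 in culture 2, against 172 and 153 in culture 1 (1.6), where 1 of the 2 arrays was above background. AXL, another target, differed by 0.08.

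Among 33 genes of cytoskeleton and adhesion 1 was higher and 1 lower, and the median was -0.14. In a list of this size 1 gene makes 3.03%, beside 2.16% higher and 1.42% lower of all genes entered. E-cadherin (CDH1) had 5801 and 5715 in culture 2, against 1917 and 1975 in culture 1 (1.56, pairs 1.53 to 1.6), and thrombospondin (THBS1) had 1631 and 1730 in culture 2, against 4217 and 4111 in culture 1 (-1.31, pairs -1.37 to -1.25). Some strongly changed genes of matrix and growth signals belong to other lists or to none. SNAI2, a repressor of CDH1 in epithelial cells, had 105 and 93.9 in culture 2, where it was not above background, against 772 and 772 in culture 1, at least 5.63-fold lower. Its bound was the largest seen among the named members. LOX, which crosslinks collagen, had 2675 and 2657 in culture 2, against 16027 and 16982 in culture 1 (-2.63, pairs -2.68 to -2.58). DKK1, a secreted Wnt inhibitor and itself a Wnt target, had 707 and 689 in culture 2, against 4014 and 4170 in culture 1 (-2.55, pairs -2.60 to -2.51). It was the only member of 10 genes of a Wnt list whose median was -0.07. HBEGF, a ligand of the EGF receptor, had 290 and 286 in culture 2, against 1502 and 1616 in culture 1 (-2.43, pairs -2.50 to -2.37).

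Of 29 immediate early and serum response genes, 4 were lower and 0 higher, with a median of -0.00. Besides DUSP1 these were the stress factor ATF3, with 2231 and 2037 in culture 2, against 5781 and 5326 in culture 1 (-1.38), the MAP kinase phosphatase DUSP5, with 5559 and 5317 in culture 2, against 12816 and 12700 in culture 1 (-1.23), and FOSB, with 472 and 365 in culture 2, against 974 and 1086 in culture 1 (-1.31). The classic serum response genes FOS, EGR1, JUN and MYC differed by -0.78, -0.11, -0.16 and 0.53 and were not members. Genes of NF-kB signalling held 2 lower and 0 higher members of 23, with a median of -0.36. Both are feedback genes: BIRC3, a ubiquitin ligase, had 1156 and 1200 in culture 2, against 4842 and 5068 in culture 1 (-2.07), and TNFAIP3, which encodes the deubiquitinase A20, had 720 and 673 in culture 2, against 2568 and 2589 in culture 1 (-1.89).

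Lists of differentiated liver function held more higher than lower members in culture 2, and most of their genes were within 2-fold. Of 19 hepatocyte transcription factors, 3 were higher and 0 lower, with a median of 0.42. NR1H4, the bile acid receptor FXR, had 3622 and 3551 in culture 2, against 905 and 932 in culture 1 (1.97, pairs 1.93 to 2.00). CEBPA, which drives many liver genes, had 10500 and 10558 in culture 2, against 3604 and 3479 in culture 1 (1.57, pairs 1.54 to 1.6). PROX1, a homeobox factor of liver development, had 877 and 863 in culture 2, against 341 and 330 in culture 1 (1.38, pairs 1.34 to 1.41). These factors had nearly equal signals on the arrays of a culture. HNF4A, another textbook regulator, differed by 0.47 and was not a member.

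Plasma proteins held 11 higher and 3 lower members of 42, with a median of 0.67. After HAMP the largest was complement factor B (CFB), with 2700 and 2723 in culture 2, against 289 and 258 in culture 1 (3.31, pairs 3.22 to 3.40). SERPINA6, the globulin that carries cortisol, had 875 and 954 in culture 2, against 235 and 250 in culture 1 (1.92, pairs 1.81 to 2.02). The thrombin inhibitor SERPIND1 differed by 1.67, coagulation factors F12 and F10 by 1.66 and 1.34, and the complement subunits C8A and C8B by 1.44 and 1.31. Transthyretin (TTR), fetuin (AHSG) and ITIH1 followed with 1.39, 1.21 and 1.22. SERPINF2, the inhibitor of plasmin, lies outside the list and had 3448 and 3761 in culture 2, against 712 and 657 in culture 1 (2.40, pairs 2.28 to 2.52). Albumin (ALB), the main protein of blood plasma, had 66338 and 64576 in culture 2, against 59834 and 59571 in culture 1, a log2 difference of 0.13.

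Fibrinogen ran against most of the plasma protein list, in which 33 genes leaned higher and 9 lower. Its alpha chain FGA had 1615 and 1551 in culture 2, against 6536 and 6168 in culture 1 (-2.0, pairs -2.07 to -1.93), and its beta chain FGB had 4485 and 5088 in culture 2, against 11107 and 10372 in culture 1 (-1.17, pairs -1.31 to -1.03). The gamma chain FGG leaned the same way, with 1801 and 1897 in culture 2, against 3335 and 3187 in culture 1 (-0.82), but was not over 2-fold apart. SAA4, a lipoprotein-bound serum amyloid, was the remaining lower member, at -1.15. Alpha-fetoprotein (AFP), a marker of fetal liver and of hepatocellular carcinoma, leaned lower at -0.83.

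Apolipoproteins and lipid export held 5 higher and 0 lower members of 13, with a median of 0.86. APOC3, which slows the clearance of triglyceride-rich particles, had 6226 and 5360 in culture 2, against 1992 and 1980 in culture 1 (1.54, pairs 1.43 to 1.65). APOA1 and APOA2, the main proteins of high-density lipoprotein, had 19642 and 18653, and 48207 and 48590, in culture 2, against 7125 and 7461, and 20085 and 20619, in culture 1. Their log2 differences were 1.39 and 1.25. APOM differed by 1.43, and MTTP, which loads lipid onto apolipoprotein B, by 1.29, with 8503 and 8980 in culture 2, against 3621 and 3533 in culture 1.

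Hepatocyte enzymes held 7 higher and 1 lower member of 26, with a median of 0.58. The glucuronosyltransferases UGT2B4, UGT2B10 and UGT2B7, which conjugate steroids, bile acids and drugs, differed by 1.96, 1.69 and 1.63. UGT2B7 had 8791 and 9015 in culture 2, against 3011 and 2749 in culture 1. These genes are near-identical and can share probes, so their separate values are uncertain. The alcohol dehydrogenase ADH1A, which likewise has close copies, differed by 1.46 and the gluconeogenic enzyme FBP1 by 1.12. The urea cycle was split: OTC and ASS1 were higher by 1.36 and 1.20, while CPS1, which makes the carbamoyl phosphate that OTC uses, had 3899 and 3590 in culture 2, against 24664 and 24774 in culture 1 (-2.72, pairs -2.79 to -2.66).

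**Figure D3:**
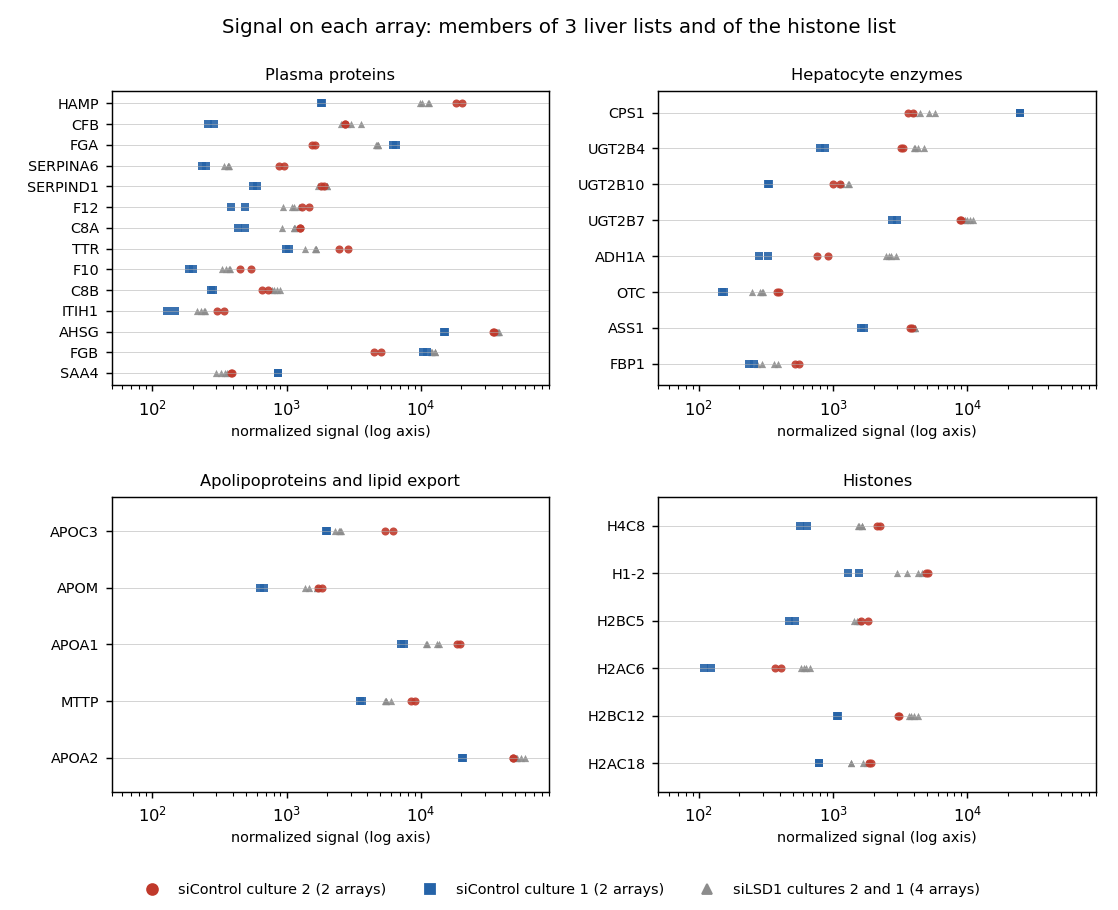
Normalized signal (log axis) of each array for the members among plasma proteins, hepatocyte enzymes, apolipoproteins and histones, with siControl culture 2 as red circles, siControl culture 1 as blue squares and the siLSD1 arrays as grey triangles. Most red points lie to the right of the blue ones, with FGA, FGB, SAA4 and CPS1 to the left, and the grey points of FGA, FGB and APOC3 lie near culture 1.

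Lipid and sterol lists changed in few genes. Fatty acid oxidation and ketogenesis held 3 higher and 1 lower member of 21, with a median of 0.22. These shares were 14.3% and 4.76%, beside 2.16% and 1.42% of all genes entered. The peroxisomal enzyme EHHADH differed by 1.29 and the lipid droplet protein PLIN2 by 1.06. CYP4A11, which hydroxylates fatty acids at the omega end, had 220 and 201 in culture 2, against 607 and 641 in culture 1 (-1.57), and its close copies make that value uncertain. ACOX2, a peroxisomal oxidase of bile acid intermediates outside the list, had 2934 and 2817 in culture 2, against 673 and 617 in culture 1 (2.16, pairs 2.06 to 2.25). Fatty acid synthesis held 1 higher (5.0%) and 0 lower of 20, with a median of 0.14. The member was the citrate carrier SLC13A5, not above background in culture 1 and at least 1.17-fold higher. Cholesterol synthesis and uptake held 1 higher (3.85%) and 0 lower of 26, with a median of -0.08. This was the intestinal and hepatic sterol importer NPC1L1, with 1569 and 1406 in culture 2, against 444 and 468 in culture 1 (1.70).

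Fetal and progenitor genes held 2 higher and 0 lower members of 17, with a median of 0.34. The imprinted noncoding RNA H19 had 4565 and 4590 in culture 2, against 1147 and 1112 in culture 1 (2.02, pairs 1.99 to 2.05), and glypican GPC3, a marker of hepatocellular carcinoma, had 5331 and 5140 in culture 2, against 2233 and 2160 in culture 1 (1.25, pairs 1.20 to 1.30).

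Hypoxia-induced genes leaned to both sides. Of 39 genes induced by hypoxia-inducible factors, 4 were over 2-fold higher and 1 lower, 22 leaned higher and 17 lower, and the median was 0.05. EPO, the gene of erythropoietin, had 560 and 499 in culture 2, against 72.0 and 87.4 in culture 1, where it was not above background, at least 3.23-fold higher. SLC16A3, which exports lactate, had 629 and 623 in culture 2, against 167 and 161 in culture 1 (1.93, pairs 1.90 to 1.97), with 1 of the 2 culture 1 arrays above background. PLIN2 was also among the higher members, and LOX was the lower one. COXFA4L2, known before as NDUFA4L2 and induced by hypoxia in other cells, lies outside the list and had 1307 and 1442 in culture 2, against 265 and 251 in culture 1 (2.41, pairs 2.30 to 2.52). Standard markers were within 2-fold: CA9, a carbonic anhydrase, had 17740 and 17163 in culture 2, against 10865 and 9863 in culture 1 (0.75), and VEGFA had 1981 and 1979 in culture 2, against 1754 and 1728 in culture 1 (0.19).

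DNA replication leaned lower, with 6 lower and 0 higher members of 38, 33 leaning lower and a median of -0.55. Cyclin E2 (CCNE2), which starts S phase, had 504 and 542 in culture 2, against 2143 and 1983 in culture 1 (-1.98, pairs -2.09 to -1.87), and cyclin E1 (CCNE1) differed by -1.13. CDC6, which licenses origins, had 193 and 181 in culture 2, against 491 and 475 in culture 1 (-1.37). Thymidine kinase (TK1) had 3020 and 2959 in culture 2, against 6887 and 7586 in culture 1 (-1.27), and DTL and RRM2 differed by -1.19 and -1.03. Mitosis held 0 members of 30, with a median of -0.23; the largest differences were those of the motor KIF2C, with -1.01, and the spindle protein NUSAP1, with -0.85. The proliferation marker MKI67 differed by 0.27. With neqc, a background correction based on the deposited detection p-values, 3 replication genes were over 2-fold lower, and CCNE2, CDC6 and CCNE1 were not among them.

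The histone list held 6 higher and 0 lower members of 14, with a median of 0.95. Over all 27 replication-dependent histone genes entered, picked by symbol after the values were seen, 7 were higher, or 25.9%, and 0 lower, and the median was 0.38. H1-2, a linker histone, had 5068 and 4931 in culture 2, against 1294 and 1570 in culture 1 (1.81, pairs 1.65 to 1.97). H4C8 had 2245 and 2134 in culture 2, against 641 and 571 in culture 1 (1.86, pairs 1.74 to 1.97), and H2BC5 had 1809 and 1609 in culture 2, against 517 and 468 in culture 1 (1.79, pairs 1.64 to 1.95). H2BC12 and H2AC18 differed by 1.5 and 1.27, and H2AC6, not above background in culture 1, was at least 2.36-fold higher. In a run of histone genes on chromosome 6, each within 100 kb of the next member, 5 of 10 genes entered were higher: H1-2, H2AC6, H2BC5, H4C5 and H4C8. Histone copies are near-identical, so the gene behind a signal is uncertain. Among 22 cyclin kinase brakes and p53 targets, 3 were lower and 0 higher, with a median of -0.06: the stress sensor GADD45A (-1.69), the kinase PLK2 (-1.93) and TP53INP1 (-1.27). CDKN1A, the p21 brake, had 3779 and 4022 in culture 2, against 2187 and 1986 in culture 1 (0.90) and was not a member.

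Stress and housekeeping lists gave few members. ER stress and amino acid response held 2 lower and 0 higher of 31 (median -0.04), ATF3 and the chaperone DNAJB9, with -1.27. The lower share was 6.45%, beside 1.42% of all genes entered. Ribosome biogenesis and MYC targets held 1 lower (3.23%) and 0 higher of 31 (median -0.31), the nucleolar methyltransferase NOP2, with -1.18. No member was found among 40 genes of oxidative phosphorylation (median -0.20), 26 of lysosome and autophagy (-0.14), 24 NRF2 targets (0.09), 23 interferon response genes (-0.07), 18 heat shock genes (-0.30), 9 tRNA synthetases (-0.04) and 17 reference genes (-0.05). Within them the largest differences were those of NDUFA2 (-0.80), CTSB (0.75), ABCC2 (0.94), HERC6 (-0.87), HSPH1 (-1.14), IARS1 (0.49) and POLR2A (-0.76), each with at least 1 array pair within 2-fold. The list of other cell types held DCN alone as a lower member (14.3%) and 0 higher of 7, with a median of 0.42. Partners of LSD1 held 3 higher and 0 lower of 12, with a median of 0.32. These were GSE1, with 2466 and 2476 in culture 2, against 982 and 928 in culture 1 (1.37), the corepressor RCOR2, with 1038 and 1191 in culture 2, against 506 and 437 in culture 1 (1.24), and PHF21A, with 8163 and 7601 in culture 2, against 3763 and 3771 in culture 1 (1.06).

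**Figure D4:**
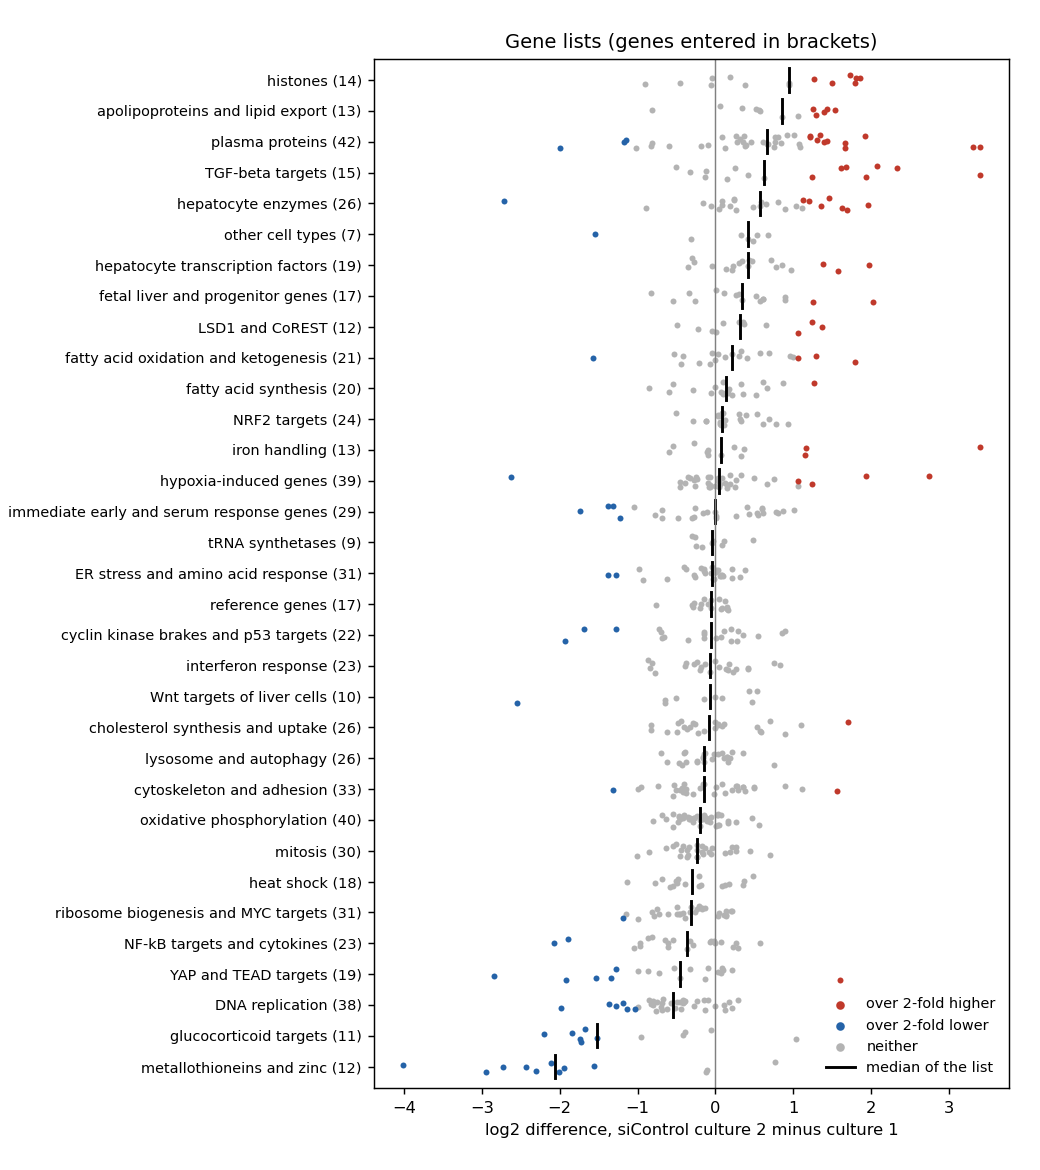
Log2 difference of siControl culture 2 minus culture 1 for each gene entered from 33 lists, ordered by the median (black tick), with members in red where higher, in blue where lower and other genes in grey. Histones, apolipoproteins and plasma proteins are at the top, and glucocorticoid targets and metallothioneins are at the bottom, with medians of -1.52 and -2.06.

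Several of the most changed members belong to none of the lists. The glutamate transporter SLC1A7 had 2428 and 2367 in culture 2, against 377 and 461 in culture 1 (2.52, pairs 2.36 to 2.69). The giant muscle protein nebulin (NEB) had 2296 and 2479 in culture 2, against 484 and 404 in culture 1 (2.43). The kinase PNCK and the podosome scaffold SH3PXD2A differed by 2.16 and 2.10. CEACAM6, a surface glycoprotein of epithelial tumours, had 516 and 523 in culture 2, against 101 and 125 in culture 1, where it was not above background, at least 3.17-fold higher. On the lower side, NNMT, which methylates nicotinamide and is abundant in liver, had 179 and 156 in culture 2, against 1618 and 1594 in culture 1 (-3.26, pairs -3.37 to -3.15). The antimicrobial peptide gene DEFB1 had 435 and 366 in culture 2, against 2135 and 2307 in culture 1 (-2.48). The noncoding gene PSORS1C3 had 776 and 864 in culture 2, against 4562 and 4307 in culture 1 (-2.44). BEST2, an anion channel, had 86.8 and 83.6 in culture 2, where it was not above background, against 661 and 551 in culture 1, at least 4.40-fold lower.

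The siLSD1 arrays were not used to choose the members, and they show where a further pair of cultures lay. On a scale with culture 1 at 0% and culture 2 at 100%, the mean of the 4 siLSD1 arrays stood at a median of 80% for the higher members (quartiles 54% and 102%) and 84% for the lower members (quartiles 63% and 103%). It was nearer to culture 2 for 259 of 333 higher and 193 of 219 lower members, 452 of 552 in all. It lay beyond culture 2 for 146 members and beyond culture 1 for 12. These counts include the 48 members with a control culture below background, for which the end of the scale is the floor of the array and the place is not exact. No such count was made for genes that were not members, so a place near culture 2 is not shown to be particular to members. A place on this scale mixes whatever the siRNA did with the difference of the control cultures, and these cannot be told apart here.

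**Figure D5:**
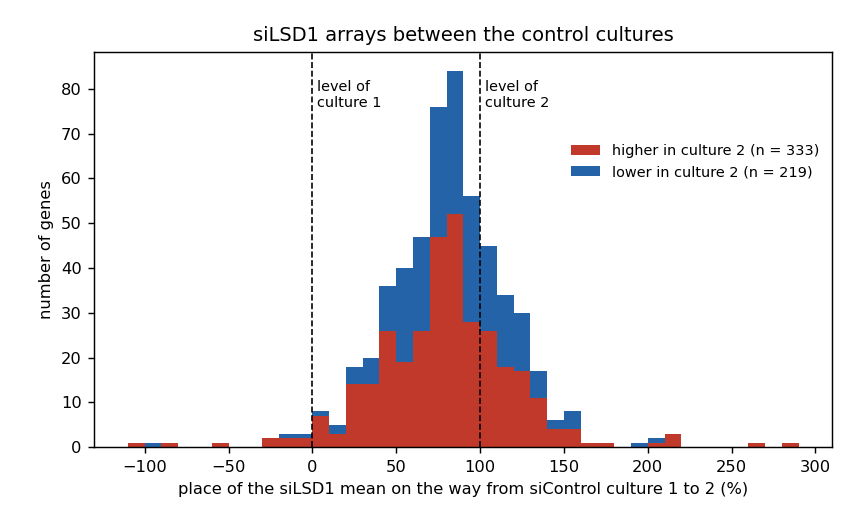
Number of members by the place of the siLSD1 mean between the control cultures, in percent of the log2 distance with siControl culture 1 at 0 and siControl culture 2 at 100, stacked in red for higher and blue for lower members. Most members lie nearer to culture 2, with medians of 80% for higher and 84% for lower members.

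The place of single members varied within each group. Among metallothioneins above background in both control cultures, MT1X lay at 83% of the way, MT1G at 100%, MT1F at 110%, MT1A at 116%, MT2A at 117% and MT1E at 150%. Among glucocorticoid targets, DUSP1 lay at 59%, SGK1 at 66%, FKBP5 at 84% and KLF9 at 125%. The median log2 difference of siLSD1 minus culture 2 was 0.04 over the metallothionein and zinc list and 0.15 over the glucocorticoid list, against -2.36 and -1.37 for siLSD1 minus culture 1. ID1, ID3, SMAD6 and HAMP were found at 93%, 90%, 71% and 75%, and FST at 124%. CPS1 and CEBPA lay at 87% and 84%. Some members had siLSD1 signals near culture 1 instead. FGA was at 21%, APOC3 at 19%, TP53INP1 at 21%, THBS1 at 4%, FOSB at -5% and FGB at -17%; the siLSD1 arrays of FGB gave 11799 to 12816. RCOR2 lay at -28%, below both control cultures, at 345 to 410. ADH1A lay far beyond culture 2, at 216%, and LOX at 148%, with 1036 to 1210.

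Between siLSD1 culture 2 and siLSD1 culture 1 the members hardly differed. The median log2 difference was 0.04 for the higher and -0.046 for the lower members, and the largest, 0.75, was that of PROX1, with 924 and 949 in siLSD1 culture 2, against 558 and 559 in siLSD1 culture 1. Across genes, which are not independent replicates and which share the normalization, the culture 2 minus culture 1 differences of siLSD1 and of siControl correlated at r = 0.12 over the 15402 genes entered and at r = 0.26 over the 552 members.

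The count of members depends on background correction. With neqc, a correction that infers the background from the deposited detection p-values, 185 genes were higher and 126 lower, and 110 and 74 of the members above were among them. Among 85 members named by rule, neqc left 34 within 2-fold on at least 1 pair, namely EPO, SLC39A5, COXFA4L2, CEACAM6, NNMT, SNAI2, BEST2, MT1M, HBEGF, SCNN1A, SGK1, KLF9, CCNE2, CDC6, CCNE1, H2BC5, H2AC6, PLK2, SLC16A3, NPC1L1, SLC13A5, CYP4A11, EHHADH, UGT2B10, SERPINA6, APOM, PROX1, LATS2, NUAK2, NT5E, FOSB, HJV, RCOR2 and DCN. Genes such as HAMP, CFB, MT1G, MT1X, FKBP5, DUSP1, ID1, CCN1, CPS1, LOX, NR1H4 and CEBPA were kept. By list, neqc gave 5 lower genes of metallothioneins and zinc, against 9 in the counts above. It gave 2 lower glucocorticoid targets, against 6, and 4 lower YAP and TEAD targets, against 5. Higher genes under neqc were 4 of histones, against 6, and 7 of plasma proteins, against 11. Hepatocyte enzymes had 3, against 7, and BMP and TGF-beta targets had 7 in both.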

How the data were processed

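Total RNA of 4 Huh-1 cultures was measured on 8 Illumina bead arrays, 2 technical arrays per culture. The scanner data went through BeadStudio 3.1.1.0, per the submitters' processing notes. The authors deposited non-normalized linear intensity for 34694 rows named by symbol, and beside each signal the authors deposited a detection p-value. A second deposited table holds intensity made comparable between arrays. The array type, the summary of probes and the normalization of the second table are not given in the sources used here.

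Intensities were corrected with normexp (offset 50) in limma 3.58.1 under R 4.3.3, quantile-normalized over 8 arrays and taken to log2. Selection and counts used Python 3.11.15 and pandas 2.3.3. A row entered where its deposited signal exceeded all 92 ERCC rows on both arrays of at least 1 control culture. Filtering on the detection p-value was only an alternative, since 28 members had p of 0.01 or more on all 4 control arrays. These members stood above every ERCC row on both arrays of at least 1 control culture, though not all were bright. The ERCC maximum was 164 to 228 and 12447 to 13290 rows per array had a detection p under 0.01. The number of arrays limits the precision. The 2 arrays of a culture measure array error only, so no test, SE or p-value was computed. The selection was tested on simulated data.

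Of all rows, 17762 carried a current RefSeq symbol (GRCh38.p14) and 2735 an older one. The 0 unmapped columns left nothing out. Genes were named by rule: KDM1A, the 15 highest and 15 lowest members by the smallest pair difference, and up to 4 members of each of 33 gene lists (the 2 genes with the largest difference where a list had none). Further list genes, and genes at the edge of the rule, were named after their values were seen. The members and lists were chosen with earlier results of these data known. Lists overlap: HAMP is in the TGF-beta, plasma protein and iron lists. Some members counted here are not reported by name.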

Additional observations from a re-analysis of the deposited data

Results flagged for a closer look

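For 20 of the 85 members named by rule, every array pair of siLSD1 culture 2 against siLSD1 culture 1 ran opposite to the pairs of the control cultures. For 29 all pairs ran the same way, and for 36 the siLSD1 cultures overlapped. The same was not counted over all 15402 genes entered, so these counts are not known to be particular to the members. Technical arrays of each siLSD1 culture spread with an SD of 0.16 in log2, and several differences given below are no larger than that. Of the 20, 16 were higher in siControl culture 2 and lower in siLSD1 culture 2, and those reported here had these siLSD1 differences in log2: CDH1 (-0.16), CEBPA (-0.08), CFB (-0.29), EPO (-0.34), FST (-0.20), H4C8 (-0.09), HAMP (-0.18), NR1H4 (-0.26), NT5E (-0.19), PHF21A (-0.15), PLIN2 (-0.22), SH3PXD2A (-0.09), SLC11A2 (-0.19) and UGT2B7 (-0.13). The 4 with the reverse order included BIRC3 (0.20), MT1X (0.19) and NUAK2 (0.14). DCN (0.16) was the other, but its siLSD1 signals, 100 to 113, were below the highest ERCC row, so its difference has no direction. The difference between the siRNA groups was not tested, each side is 1 culture, and nothing in the labels ties the culture numbers of the siRNA groups to each other.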

How the results depend on the processing

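Over 1.5-fold on all 4 pairs stood 1167 higher and 926 lower genes, and over 3-fold 55 and 59. With neqc the counts were 185 and 126, 266 of these genes had siLSD1 nearer to culture 2, and KDM1A differed by 0.48; the cause was not tested. Members kept under neqc had a median signal of 1843 in the dimmer culture and those not kept 300.0. Without each control array in turn, 395 to 408 genes were higher and 245 to 270 lower. The other settings (detection p filter, no filter, median scaling, 4 control arrays alone, offset 16, no background correction, the authors' values, culture means, equal technical numbers) gave 269 to 461 higher and 181 to 302 lower genes, within 1.5 times the counts reported. No member was over 2-fold the opposite way under any of the 16 alternative settings. Of 1014 values of the 85 named members, 0 changed sign. Settings that changed only the filter, the threshold, the pairing or the arrays kept used the same normalized values. They could not reverse a member, and only settings with another background correction or normalization could. The size of the values ranged from 0.05 to 1.41 times the log2 difference reported. It was smallest under neqc, where SLC13A5 and HJV differed by 0.06 each in log2. The detection p filter dropped CCNE2, H2BC5, ATF3, NOP2, HJV and DCN. Without background correction CCNE1, SLC13A5, FOSB, HJV and RCOR2 were within 2-fold, with the authors' values CCNE1, SLC13A5, PLIN2 and HJV, with median scaling PHF21A, and over the 4 control arrays alone PLIN2. Of 396 list medians 6 changed sign, all near 0: cyclin brakes and p53 targets with no filter (0.05) and, without 1 control array, -0.05 to 0.04, interferon with no filter (0.02), reference genes with median scaling (0.06) and the authors' values (0.01), and Wnt targets without 1 control array, -0.2 to 0.03. Both were above 0 without array 3 of siControl culture 2. No paired analysis was possible because the result comes from no test.

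Each side is 1 culture with no further replicate, and slide, date, density and passage cannot be told apart from the culture. Signals near the ERCC rows give only bounds.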

Other observations

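Some gene families, picked by their symbols after the values were seen, held members beyond the lists. All 6 genes entered of the UGT2B glucuronosyltransferases were higher in siControl culture 2 (UGT2B4, UGT2B7, UGT2B10, UGT2B11, UGT2B17 and UGT2B28), although near-identical copies can share a signal. Of 18 serpins, which are mostly inhibitors of plasma proteases, 6 were higher and 0 lower, among them SERPINA5, SERPINA6, SERPIND1, SERPINF1 and SERPINF2. Cytochromes P450 held 5 higher genes and 1 lower among 25; the higher ones were CYP24A1 and CYP26B1, which degrade vitamin D and retinoic acid, CYP2C8, CYP2C18 and CYP4F12. Of 18 dual-specificity phosphatases, some of which switch off MAP kinases, DUSP9 was higher, and DUSP1, DUSP5 and DUSP10 were lower.

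Solute carriers held 10 higher and 6 lower genes among 202, which is 4.95% and 2.97%, beside 2.16% and 1.42% of all genes entered. Zinc finger genes of the ZNF series held 6 higher and 10 lower genes among 336, which is 1.79% and 2.98%. The higher share of the ZNF genes lies near the 2.16% of all genes entered, and their lower share is above the 1.42%. None of 79 ribosomal protein genes was over 2-fold apart, and their median log2 difference was 0.04.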
